A study of Mus musculus with 3 samples.

Results

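The surfactant protein genes Sftpa1, Sftpb, Sftpc, Sftpd and Sfta2 and the protease genes Napsa and Ctsh were examined in chromatin of mouse alveolar type II (AT2) cells, for binding of the transcription factor ETV5 and for histone H3 trimethylated at lysine 4 (H3K4me3). Every peak with any base in the GRCm38 body of one of these 7 genes, or within 20 kb of it, was taken from the authors' deposited peak lists. That gave 62 of 31165 ETV5 peaks and 22 of 15134 H3K4me3 peaks, and no peak lay in more than 1 of the 7 windows. The genes were grouped by function. The selection rule uses no measured value, but the group was proposed with earlier results of these data known.

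The ETV5 library and the H3K4me3 library both came from AT2 cells of C57BL/6 mice aged 10 to 12 weeks, with no genotype or treatment named in the labels, and an input library without antibody was the third sample. Chromatin was fixed with formaldehyde and sheared before immunoprecipitation. The labels give neither the number of animals behind the cells nor how the cells were purified. Each antibody has a single library, so no value has a replicate and no test across libraries was possible. The ETV5 list rests on 5715049 tags and the H3K4me3 list on 34907608 tags. Per the file headers the input set against ETV5 has another name than the input sample of the labels, so the lists were called against different inputs and their fold values are not on a common scale.

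Pulmonary surfactant is the lipid and protein film that lowers surface tension in the alveolus, and AT2 cells make, store, secrete and recycle it. SP-B and SP-C, encoded by Sftpb and Sftpc, are small hydrophobic proteins cut from larger precursors on the way to the lamellar body, the storage organelle of the AT2 cell. The aspartic protease napsin A (Napsa) and the cysteine protease cathepsin H (Ctsh) take part in that cutting. SP-A and SP-D, encoded by Sftpa1 and Sftpd, are collectins, secreted lectins of innate defence. Sfta2 encodes a small secreted protein of the lung. ETV5 is an ETS-family factor known to maintain AT2 identity, and H3K4me3 is a histone mark of active promoters.

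Among markers of AT2 cells that are not themselves among the 7 genes, 8 of 8 carried H3K4me3 within 1 kb of a gene end and 6 of 8 had an ETV5 summit within 5 kb of one. Over all protein-coding genes these shares were 52.1% for H3K4me3 and 60.5% for ETV5, and all counts in this paragraph stand beside them. ETV5 was also within 5 kb of 5 of 8 AT1 markers, 2 of 6 airway secretory markers, 5 of 5 ciliated markers, 3 of 7 endothelial markers, 2 of 9 macrophage and leukocyte markers and 3 of 6 mesenchymal markers. H3K4me3 was found at 5 of 8 AT1 markers, 0 of 6 airway secretory markers, 5 of 5 ciliated markers, 1 of 7 endothelial markers, 2 of 9 macrophage and leukocyte markers and 0 of 6 mesenchymal markers. The ciliated peaks were 585 to 876 bp wide. In chromatin of a cell preparation, fewer cells of a type and less signal per cell cannot be told apart, and the part of other cell types in the values below was not tested.

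All 7 genes had both ETV5 and H3K4me3 in their windows. Of all 21883 protein-coding genes, 68.6% had an ETV5 peak and 66.0% an H3K4me3 peak in a window drawn the same way. An ETV5 summit lay within 5 kb of an end of 7 of the 7 genes, against 60.5% of all genes, and H3K4me3 lay within 1 kb of an end of 7 of 7, against 52.1%. Most genes with H3K4me3 have ETV5 as well, 10886 of 11407 at these distances, so the 7 of 7 for ETV5 is near what such genes show. The order of the highest ETV5 fold within 5 kb of a gene end was Sftpb (117), Napsa (25.3), Sfta2 (19.5), Sftpa1 (18.3), Sftpc (15.6), Ctsh (7.64) and Sftpd (6.81). Fold enrichment here is the authors' value, which MACS2 computes as the fragment pileup at the summit plus 1 over the local background plus 1. Backgrounds given below were worked back with this formula, under which the lowest H3K4me3 background in the windows was 5.38, equal to the genome-wide value expected from the tag count. The Sftpb pileup of 289 fragments (exact 95% Poisson interval 257 to 324) lay clear of the next, 61 at Napsa (46.7 to 78.4). For neighbours in this order, the ratio of pileups with its exact 95% interval was 4.74 (3.58 to 6.35) for Sftpb over Napsa, 1.56 (1.03 to 2.40) for Napsa over Sfta2 and 2.23 (1.12 to 4.67) for Sftpc over Ctsh. The ratio was 0.886 (0.561 to 1.40) for Sfta2 over Sftpa1, 1.52 (0.928 to 2.51) for Sftpa1 over Sftpc and 1.00 (0.427 to 2.34) for Ctsh over Sftpd, and these 3 intervals include 1. The Sftpc pileup of 29 used in these ratios belonged to a peak nearest to an end of Bmp1, a neighbouring gene. The strongest peak nearest to an end of Sftpc had fold 10.1 and pileup 26 (17 to 38.1), and no ratio was computed for it. Intervals cover counting error only and were not adjusted for the number of pairs. They take no account of the authors' limit of 1 tag per position, which bounds high pileups such as that of Sftpb.

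**Figure D1:**
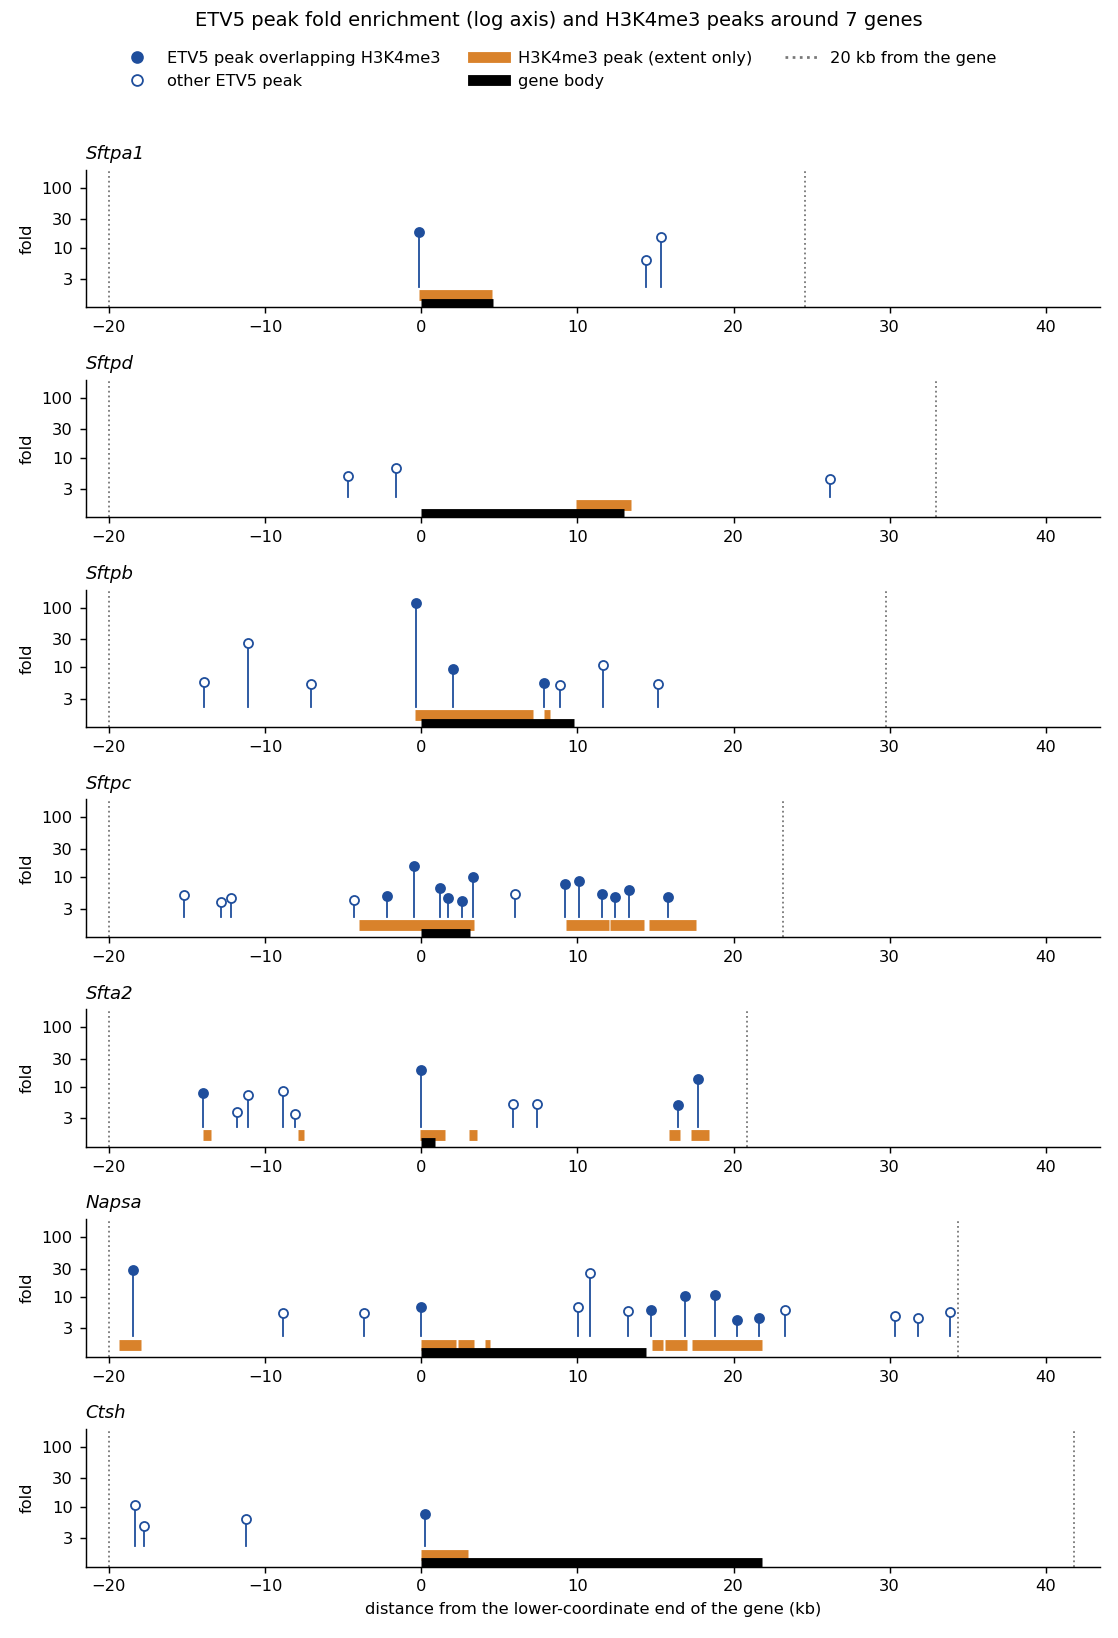
ETV5 peaks (points, fold enrichment on a log axis) and the extent of H3K4me3 peaks (orange) against distance in kb from the lower-coordinate end of each gene, with the gene body in black and dotted lines 20 kb from it. The point at fold 117 beside the start of Sftpb stands above the other 61 ETV5 peaks, and no filled point lies in the Sftpd window.

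Sftpb held the strongest ETV5 peak of the group. It lay at chr6:72303479-72306139, 2661 bp wide, with a −log10 q of 535 and rank 26 by fold among 31156 ETV5 peaks on assembled chromosomes. Its summit was 361 bp upstream of the annotated start (plus strand, gene body chr6:72304610-72314373). The peak overlapped an H3K4me3 peak of 7535 bp (chr6:72304208-72311742, fold 37.0, pileup 235, interval 206 to 267). That H3K4me3 peak ranked 13 by width among 15129 and covered 7133 bases of the gene, with 402 bases before the start. Width and ETV5 fold were high together at this gene. Of the 10886 protein-coding genes with H3K4me3 within 1 kb of an end and ETV5 within 5 kb of one, 64 had an ETV5 fold of at least 100, and the widest H3K4me3 peak among those other than Sftpb was 3971 bp. Of 13 genes with an H3K4me3 peak at least as wide as that of Sftpb, the highest ETV5 fold apart from Sftpb was 38.0. No other gene reached the values of Sftpb in both measures. These limits were set at or just below the values of Sftpb itself, so the counts describe this gene and are no test.

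The Sftpb window had 8 further ETV5 peaks. The strongest of them lay upstream without H3K4me3, at chr6:72292830-72294098 (fold 26.0, pileup 48, interval 35.4 to 63.6), with its summit 11100 bp before the start and 10110 bp between it and the nearest H3K4me3 peak. A peak at chr6:72315967-72316507 beyond the other end of the gene had fold 11.0 and pileup 26. Inside the gene, fold was 9.28 at 2035 bp past the start, then 5.39 and 5.16 near the far end. The remaining 3 peaks had folds of 5.30 to 5.63 and pileups of 8 or 9. The nearest gene end was that of Sftpb for 8 of the 9 peaks, and that of the splicing factor gene Usp39 for the ninth. A second H3K4me3 peak in the gene was 343 bp wide, with fold 3.45.

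The promoters of the 3 members with an entry in the RefSeq promoter table (GRCm38.p6) are shown because an ETV5 peak covers each start, and not all of them hold the ETS letters searched. Each run gives the 250 bases before the annotated start on the plus strand, at chr6:72304360-72304609 for Sftpb, chr14:41131538-41131787 for Sftpa1 and chr17:35649458-35649707 for Sfta2. Capitals mark the letters searched on both strands. They were AGGAAG and CGGAAG (found in ETS sites), CAAGTG and CTCAAG (found in NKX2-1 sites) and TGTTTAC and TGTTTGC (found in FOXA sites).
Sftpb: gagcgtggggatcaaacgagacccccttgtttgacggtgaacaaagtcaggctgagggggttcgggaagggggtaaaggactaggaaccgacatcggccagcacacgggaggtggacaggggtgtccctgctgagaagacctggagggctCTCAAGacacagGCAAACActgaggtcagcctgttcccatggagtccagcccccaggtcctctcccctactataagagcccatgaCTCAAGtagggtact
Sftpa1: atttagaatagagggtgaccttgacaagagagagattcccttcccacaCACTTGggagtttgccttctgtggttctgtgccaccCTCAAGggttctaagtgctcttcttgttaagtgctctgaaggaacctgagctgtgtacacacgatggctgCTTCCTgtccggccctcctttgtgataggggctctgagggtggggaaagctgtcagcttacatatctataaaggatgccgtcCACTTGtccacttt
Sfta2: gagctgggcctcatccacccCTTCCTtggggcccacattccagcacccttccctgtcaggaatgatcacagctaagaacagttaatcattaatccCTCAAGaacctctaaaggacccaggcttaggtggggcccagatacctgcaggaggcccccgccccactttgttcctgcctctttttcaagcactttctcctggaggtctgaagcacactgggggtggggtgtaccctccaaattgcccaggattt

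The search covered these bases and the 50 after each start. AGGAAG or CGGAAG was present in Sftpa1 and Sfta2 and not in Sftpb, against 48.5% of the 21262 such windows of protein-coding genes. The shorter run GGAA, shared by both, was not searched, and the printed Sftpb bases hold it. In Sftpa1 AGGAAG lay on the minus strand, 96 bases before the start, and 62 bp from the ETV5 summit to the middle of the letters. In Sfta2 AGGAAG lay 230 bases before the start and again 26 bases into the gene, beyond the printed run and 27 bp from the ETV5 summit. NKX2-1 letters were in all 3 windows, against 25.5% of all. In Sftpa1 CTCAAG lay 8 bp from the ETV5 summit, in Sfta2 it lay 155 bases before the start, and in Sftpb it lay 100 and 15 bases before the start. FOXA letters were in Sftpb, as TGTTTGC on the minus strand 88 bases before the start, against 7.42% of all windows. The motifs searched did not overlap one another in these 3 sequences. The Sftpb summit lies 361 bp before the start, outside the window searched, while the Sftpa1 and Sfta2 summits lie inside it. The windows held 8 CpG pairs in Sftpb, 5 in Sftpa1 and 1 in Sfta2, against a median of 13 over all windows, and their GC content was 58.3%, 52.0% and 55.0%, against a median of 56.3%.

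Sftpc had the most ETV5 peaks of the 7 genes, and none above fold 15.6. Its window held 17, and 103 of all protein-coding genes (0.471%) had as many or more in their windows. The same share was 4.2% for Sfta2, 5.76% for Sftpb, 26.7% for Ctsh and 37.1% for each of Sftpa1 and Sftpd. Napsa is given below. Sftpc itself is short (chr14:70520941-70524081, 3141 bp). An H3K4me3 peak of 7353 bp (chr14:70516951-70524303, fold 53.7, pileup 378, interval 341 to 418) covered the whole gene and ranked 16 by width. It reached 3990 bases past the lower-coordinate end of the gene, into Bmp1, the neighbouring gene for a secreted metalloprotease, and 222 bases past the other end. That peak held 6 ETV5 peaks. The highest was at chr14:70519564-70521474 (fold 15.6, pileup 29, interval 19.4 to 41.6), and its summit lay 243 bp inside Bmp1 and 468 bp from Sftpc. A second at chr14:70523821-70524389 had fold 10.1 and pileup 26 (17 to 38.1), with its summit 159 bp beyond the other end of Sftpc. The other 4 had folds of 4.07 to 6.70.

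Of the 17 ETV5 peaks in the Sftpc window, 12 overlapped H3K4me3. The nearest gene end was that of Sftpc for 4 peaks and that of Bmp1 or Lgi3, which encodes a secreted leucine-rich protein, for the other 13. At Lgi3 there were 3 H3K4me3 peaks of 2751, 2184 and 3071 bp, with folds of 32.4, 7.06 and 9.21 and with 6 ETV5 peaks of fold 4.61 to 8.76. The local background behind ETV5 folds ran from 0.852 to 2.29 fragments in this window, with a median of 1.14, and was 0.928 at the peak of fold 15.6.

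**Figure D2:**
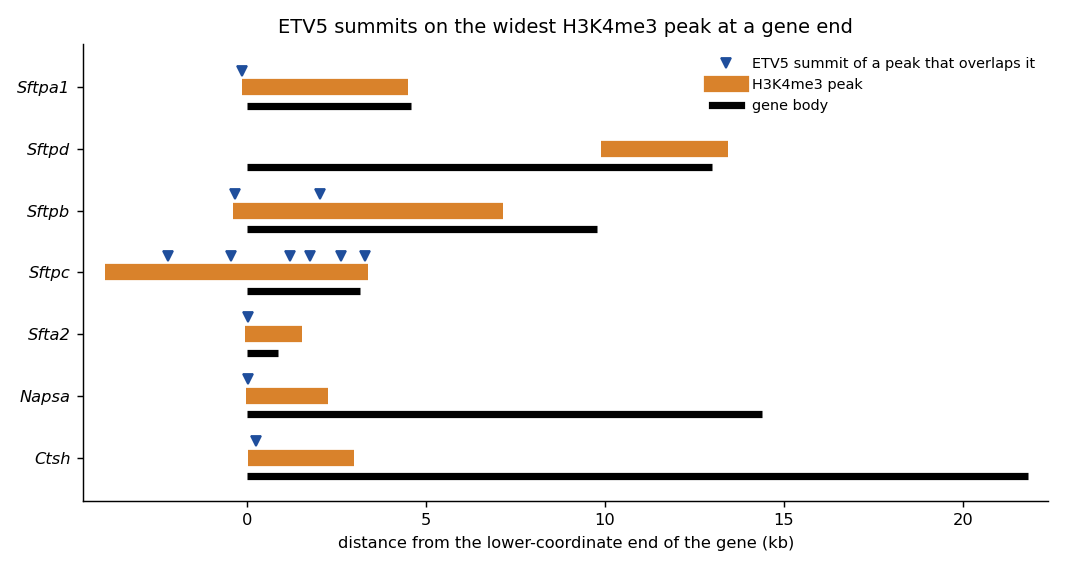
The widest H3K4me3 peak within 1 kb of an end of each gene (orange), the gene body (black) and the summits of the ETV5 peaks that overlap it (blue), in kb from the lower-coordinate end of the gene. The summits lie at the left edge of the H3K4me3 peak in Sftpa1, Sfta2, Napsa and Ctsh, 1 of 2 lies there in Sftpb, 6 are spread over the peak in Sftpc, and Sftpd has none.

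Sftpa1 and Sftpd lie close together on chromosome 14, on either side of Mbl1, a mannose-binding lectin gene of the same collectin family, and differed in where ETV5 lay. At Sftpa1 (chr14:41131788-41136373, plus strand) the ETV5 peak chr14:41131408-41132023 had fold 18.3 and pileup 44 (interval 32.0 to 59.1), with its summit 155 bp upstream of the start. H3K4me3 covered 98.2% of the gene in a peak of 4649 bp (fold 33.3, pileup 279, interval 247 to 314). At Sftpd (chr14:41172212-41185198) H3K4me3 lay at the higher-coordinate end, over chr14:41182098-41185636 (3539 bp, fold 21.8, pileup 225, interval 197 to 256), and no ETV5 peak overlapped it. The nearest ETV5 peak was 11386 bp away, beyond the other end of the gene. Of all 11407 genes with H3K4me3 within 1 kb of an end, 94.0% had an ETV5 peak on the widest such H3K4me3 peak, and 6 of the 7 genes here did.

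The ETV5 peaks in the Sftpd window were 3 weak ones, with folds of 4.89, 6.81 and 4.45 and pileups of 11, 13 and 9. A pileup of 9 has an exact interval of 4.12 to 17.1, so these values cannot be ordered. Between Sftpa1 and Mbl1 there were 2 further ETV5 peaks without H3K4me3, with folds of 6.16 and 14.9, the stronger at chr14:41146850-41147319 with pileup 27 (17.8 to 39.3). Their nearest gene end was that of Mbl1, which itself had no H3K4me3 within 1 kb of an end.

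Sfta2 is the shortest of the genes (862 bp, chr17:35649708-35650569, plus strand). An ETV5 peak at chr17:35649378-35650166 had its summit 1 bp from the annotated start, with fold 19.5 and pileup 39 (interval 27.7 to 53.3). H3K4me3 covered the whole gene (chr17:35649644-35651237, 1594 bp, fold 17.3, pileup 138, interval 116 to 163), the lowest H3K4me3 fold among the main peaks of the 7 genes. The other 9 ETV5 peaks of the window were nearest to neighbours. Those toward Mucl3, a mucin-like gene, were 5, with folds of 3.56 to 8.48. Those toward Vars2, which encodes a mitochondrial valyl-tRNA synthetase, were 4, with folds of 5.07 to 13.8, the strongest on an H3K4me3 peak at the end of Vars2 farther from Sfta2.

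Napsa (chr7:44572445-44586846) had 16 ETV5 peaks in its window, and 140 of all protein-coding genes (0.640%) had as many or more. The strongest ETV5 peak inside the gene did not lie on H3K4me3. It was at chr7:44582770-44583616, with fold 25.3 and pileup 61 (interval 46.7 to 78.4), 10832 bp from the lower-coordinate end and 3624 bp from the nearest H3K4me3 peak. The main H3K4me3 peak covered the lower-coordinate end (chr7:44572413-44574692, 2280 bp, fold 30.9, pileup 196, interval 170 to 225), and the ETV5 peak there was weak, with fold 6.74 and pileup 12 (6.20 to 21.0) and its summit 9 bp inside the gene. The pileup intervals of these 2 ETV5 peaks did not overlap.

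The highest ETV5 fold in the Napsa window, 28.2 (pileup 80, interval 63.4 to 99.6), belonged to a peak 15 bp from the end of Nr1h2, which encodes the nuclear receptor LXR-beta, and lay 18227 bp from Napsa. The nearest gene end was that of Napsa for 6 of the 16.

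Ctsh (chr9:90054267-90076095) had strong H3K4me3 and little ETV5. Its H3K4me3 peak (chr9:90054276-90057247, 2972 bp) had fold 54.7 and pileup 348 (interval 312 to 387), the highest H3K4me3 fold of the 7 main peaks, close to the 53.7 of Sftpc, and their pileup intervals overlapped. The ETV5 peak on it, chr9:90054174-90054739, had fold 7.64 and pileup 13 (6.92 to 22.2), with its summit 226 bp inside the gene. Of the other 3 ETV5 peaks, a peak 18095 bp from the gene had fold 11.0 and pileup 22 and was nearest to Rasgrf1, a RAS exchange factor gene. The remaining folds were 4.87 and 6.38.

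**Figure D3:**
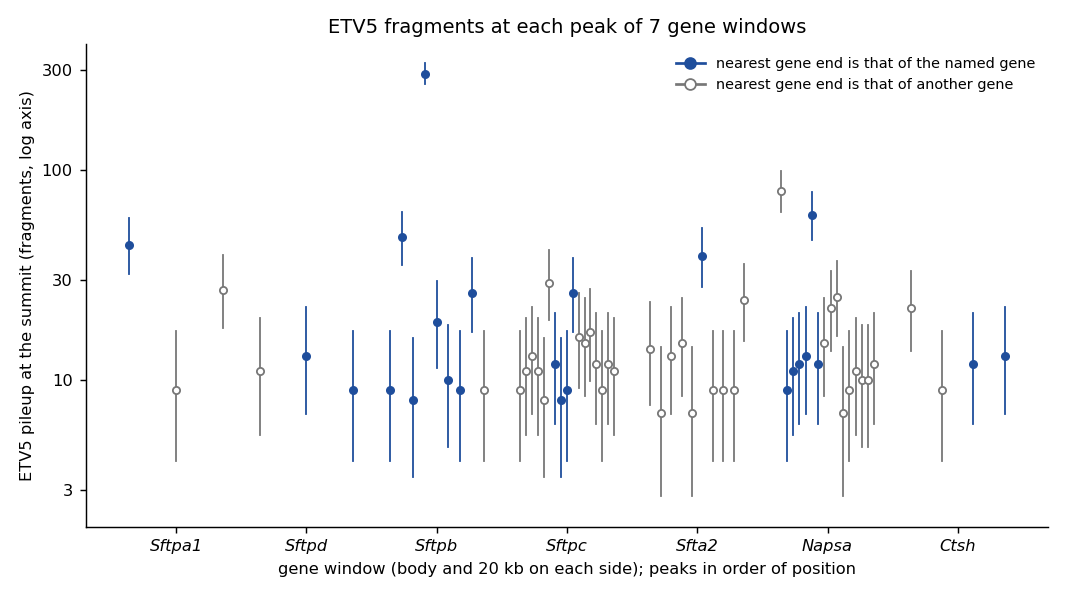
ETV5 pileup (fragments at the summit, log axis) of each of the 62 peaks by gene window, in order of position, with exact 95% Poisson intervals as vertical lines. Filled blue points are nearest to an end of the named gene and open grey points to another gene. The 289 fragments at Sftpb stand apart, and 48 of the 62 peaks have fewer than 20 fragments.

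Most of the main H3K4me3 peaks were wide. Those under 3000 bp were at Ctsh (2972 bp), Napsa (2280 bp) and Sfta2 (1594 bp). At 4 of the 7 genes (Sftpb, Sftpc, Sftpa1 and Sftpd) the peak was at least 3000 bp, against 5.17% of the 11407 marked genes, a limit chosen after the widths were seen. Such widths were also found at all 8 AT2 markers outside the 7 genes, at 4175 to 12934 bp. They were not confined to AT2 markers, since the AT1 marker Aqp5 had 5399 bp. The other AT1 markers with H3K4me3 had 454 to 1594 bp. The median over the 7 was 3539 bp, against 1451 bp over all marked genes. In fold they were not apart from the rest, with a median of 33.3, against 34.8. H3K4me3 covered 100% of Sftpc and Sfta2, 98.2% of Sftpa1, 76.6% of Sftpb, 25.3% of Napsa, 23.9% of Sftpd and 13.6% of Ctsh, and the median over marked genes was 4.38%. Short genes are covered more easily, and the 7 genes had a median length of 9764 bp, against 17170 bp over all protein-coding genes.

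ETV5 lay at the edge of these H3K4me3 peaks at most of the genes. Of the 6 genes with ETV5 on the main H3K4me3 peak, the summit of the highest-fold ETV5 peak lay within 250 bp of an edge in 5, and 16.9% of the 10718 such genes did so. The distance was 8 bp at Sftpa1, outside the H3K4me3 peak, and 41 bp at Sftpb, 41 bp at Napsa, 65 bp at Sfta2 and 217 bp at Ctsh, all inside it. At Sftpc it was 3522 bp, for a peak nearest to an end of Bmp1. The strongest ETV5 peak nearest to an end of Sftpc (fold 10.1) had its summit 63 bp inside the higher-coordinate edge. The median over all such genes was 540 bp. In Sftpb, Sftpa1 and Sfta2, whose strand is known here, the edge was the upstream one. The limit of 250 bp was chosen after the positions were seen, and no test of the count was made.

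**Figure D4:**
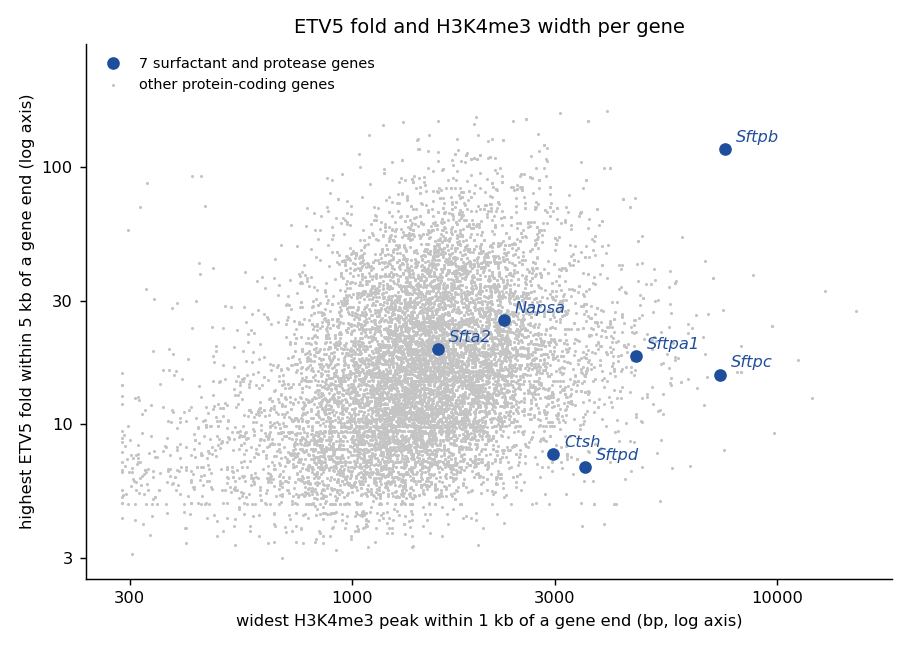
Highest ETV5 fold within 5 kb of a gene end against the width of the widest H3K4me3 peak within 1 kb of one, both on log axes, for the 7 genes (blue) and the other protein-coding genes among the 10886 with both (grey). Sftpb stands alone at 7535 bp and fold 117, and Sftpd and Ctsh have folds of 6.81 and 7.64 beside widths of 3539 and 2972 bp.

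Most of the 62 ETV5 peaks in the windows had folds under 10, as did most ETV5 peaks of the whole list. In the windows the median fold was 5.71 and the median pileup 12, close to the 6.60 and 13 over all ETV5 peaks. A fold of 10 or more was found at 14 of the 62, against 9568 of all 31156 ETV5 peaks (30.7%). Of the 14, 7 were nearest to an end of one of the 7 genes and 9 overlapped H3K4me3. How many of the 9568 overlapped H3K4me3 was not computed. In all, 28 of the 62 (45.2%, exact Clopper-Pearson interval 32.5 to 58.3) overlapped H3K4me3, against 48.9% of all ETV5 peaks. The 28 had a median fold of 7.17 and the 34 others a median of 5.36, among them the 26.0 upstream of Sftpb and the 25.3 inside Napsa. Of the 22 H3K4me3 peaks, 17 (77.3%, interval 54.6 to 92.2) held an ETV5 peak, against 84.2% of all H3K4me3 peaks. The nearest gene end was that of a member for 24 of the 62 ETV5 peaks and 11 of the 22 H3K4me3 peaks. At the border of the windows, the outermost ETV5 peak inside was 19292 bp from Napsa (fold 5.53) and the first one outside was 20033 bp from it (fold 3.37). For the other 6 genes the first ETV5 peak outside lay 21168 to 49401 bp away, with folds of 4.48 to 20.7.

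Other genes of surfactant biology were listed for comparison, and each count stands beside 60.5% of all genes for ETV5 and 52.1% for H3K4me3. Among the 11407 genes with H3K4me3, 10886 had ETV5. Of 16 genes of surfactant storage, secretion, recycling and clearance, 14 had ETV5 within 5 kb of an end and 14 had H3K4me3 within 1 kb. Both were found at 12 of them. The highest ETV5 folds were at Csf2ra, a GM-CSF receptor chain (44.1), Ap3b1, an adaptor of lysosome-related organelles (35.5), and Abca3, the lipid transporter of lamellar bodies (24.4, nearest to Rnps1). Lamp3 and the receptor gene Adgrf5 carried H3K4me3 and had no ETV5. Of 20 transcription factors known at surfactant promoters, 17 had ETV5, 16 had H3K4me3 and 16 had both. The highest ETV5 folds were at Fosl1 (36.3), Nkx2-1 (32.9) and Jund (30.9). Nfia, Nr3c1 and Elf5 had neither within these distances.

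Of 15 other cathepsins and aspartic or asparaginyl proteases, 12 had ETV5 and 10 H3K4me3. The median of their highest folds was 7.01, against 14.2 over all genes with ETV5, and the top ones were at Ctsb (19.1), Ctsz (16.2) and Ctsc (14.9). Ctse, Ctsk and Ctss had neither. Of 7 other collectins and ficolins none had H3K4me3 and 2 had ETV5, Mbl1 (14.9) and Fcna (6.81, nearest to Tmem141), while Mbl2, Colec10 and Colec11 were among those with neither. Of 10 relatives of SP-B and SP-C by the saposin fold or the BRICHOS domain, 4 had ETV5 and 4 H3K4me3. The BRICHOS genes Itm2c (45.3) and Itm2b (34.4) had the highest folds, and the saposin precursor gene Psap had 5.42. Itm2a had H3K4me3 only, and the stomach genes Gkn1 and Gkn2 had neither.

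The genes most like each member were taken by distance in log2 of 3 values over the 2 libraries, the highest ETV5 fold, the highest H3K4me3 fold and the widest H3K4me3 peak in the window, among genes with all 3. Neighbours share the same peaks, and so Mbl1 was nearest to Sftpa1, Usp39 to Sftpb, Bmp1 and Lgi3 to Sftpc and Mucl3 to Sfta2. Apart from these, the nearest were Faap100 to Sftpa1 (distance 0.13), Ccdc185 to Sfta2 (0.10), Cpeb3 (0.10) and Mindy1 (0.12) to Napsa, Zbed3 and Nrip1 to Ctsh (0.07 each) and the histone genes H2ac21 and H2ac20, which share all 3 values, to Sftpd (0.14 each). For Sftpb the nearest gene outside its locus was Nme7 at 0.90, the largest distance among those named.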

How the data were processed

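ETV5 and H3K4me3 were each measured in 1 library of AT2 cells, and the third sample, an input, entered here only through the H3K4me3 calls, whose header names it. Samples were grouped by the antibody in their labels. Peaks were called by the authors with MACS2 2.1.0.20150420 per library against an input, with a q-value threshold of 0.05, per the file headers. Alignment settings were not given in the sources used here. For every peak, the pileup signal, the fold enrichment ratio, the −log10 p-value and the −log10 q-value were deposited by the authors, as were widths and summits. Fragment length was 203 bp for ETV5 and 288 bp for H3K4me3. At most 1 tag per position was kept, per the headers, which bounds the pileup. The submitters' processing notes name mm9, but a Y peak ends at 90.8 Mb and the H3K4me3 peaks meet GRCm38 gene ends, so positions are given as GRCm38. Genes and promoter sequences came from RefSeq GRCm38.p6 tables. Strand was known for 3 of the 7 genes. A peak counted with any base in a window, and lists overlapped with at least 1 bp.

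Python 3.11.15, numpy 2.4.6, pandas 2.3.3, scipy 1.17.1 and matplotlib 3.10.9 were used, and the interval counts were tested on simulated data. The members, lists and windows were chosen with earlier results of these data known. Named were all 7 genes with their peaks, in each list up to 3 genes with the highest ETV5 fold and up to 3 without ETV5, and the 2 genes most like each member. Alternatives covered stricter thresholds, other windows, overlap rules and assignment to the nearest gene. Peaks on unplaced scaffolds were used only in the totals. Some peaks of the windows are counted but not described here.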

Additional observations from a re-analysis of the deposited data

How the results depend on the processing

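The counts depended on the threshold and the window. The 62 ETV5 peaks became 19 at a −log10 q of at least 10, 14 at a fold of at least 10, 27 in windows of 5 kb, 94 in windows of 50 kb and 24 when only peaks nearest to a member counted. The 22 H3K4me3 peaks became 13 at a fold of at least 10, 14 in windows of 5 kb, 38 in windows of 50 kb and 11 when only peaks nearest to a member counted. Fewer or more peaks enter these counts by construction. The share of ETV5 peaks on H3K4me3, 45.2%, was 68.4% at an ETV5 −log10 q of 10 or more and 59.3% in windows of 5 kb. The share over all ETV5 peaks was computed for the main setting only, so these 2 values have no like share beside them. The highest ETV5 fold of Sftpc, 15.6, was 10.1 when the peak nearest to Bmp1 was left out. The other 36 of 48 alternative values stayed within 1.5 times a count or a fold, or within the counting interval of the share. They include the highest ETV5 fold of Ctsh, 11.0, which was 7.64 in windows of 5 kb or with only peaks nearest to Ctsh. Also among these 36, ETV5 lay within 5 kb of 5 of the 7 genes at a −log10 q or a fold of 10 or more, not of Ctsh and Sftpd. It lay within 1 kb of 6, not of Sftpd. Shares over all protein-coding genes were not computed at these settings, so whether these counts are high or low was not tested. The ETV5 library had 5715049 tags, which limits the calling of weak peaks, and absence of a peak means that none was called at this depth. No paired analysis was possible because each antibody has 1 library.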
